A study of Homo sapiens with 12 samples.

Results

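The transcripts that separate cells in a plasma-like medium from cells in a standard medium, whatever the trace elements of the plasma-like medium, were examined in HepG2, an established wild-type human line derived from a liver cancer. Of the 12 libraries of the series, 12 entered the comparison: 9 from cells in Plasmax-type media and 3 from cells in EMEM (Eagle's minimum essential medium), in which the cells had also been maintained and seeded. The Plasmax-type media were Plasmax, a medium composed after human blood plasma, Plasmax-TE, the same base without trace elements, and Plasmax-TE+Fe, that base with iron added back, with 3 libraries each. All 4 media held 10% heat-inactivated fetal bovine serum, which brings trace elements and lipids of its own. The media replaced the seeding medium 24 h after seeding, were renewed after 48 h, and RNA was taken at 96 h. Libraries were made with QuantSeq, which reads the 3′ ends of messenger RNA. A gene was taken to stand apart when every Plasmax-type library lay on 1 side of every EMEM library and the mean of the 3 Plasmax media differed from EMEM in edgeR's quasi-likelihood test. EMEM and the Plasmax base differ in many nutrients at once, so the part of any 1 nutrient cannot be told apart.

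Liver cells adjust transcription to nutrients through several well-known systems. The MondoA and ChREBP factors sense sugar phosphates and drive the arrestins TXNIP and ARRDC4, and SREBP factors drive the enzymes of sterol and unsaturated fatty acid synthesis when membrane sterols are low. Hypoxia-inducible factor (HIF) drives glycolysis and related genes when oxygen, or the iron and other cofactors of the prolyl hydroxylases, is short. HepG2 cells keep much of the secretory programme of hepatocytes, including albumin, transthyretin and apolipoproteins.

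Total counts ran from 1562125 to 2384090 per library and did not differ between the 9 and the 3 libraries (two-sided exact permutation test, p = 0.664; 9 against 3 libraries allow no p below 0.0091). Levels are given as TMM-scaled CPM, counts scaled to a common library size, in which 1 count is worth 0.419 to 0.640 CPM. On principal component 1, which held 34.1% of the variance, EMEM libraries lay between -33.5 and -27.3, Plasmax-TE between -18.6 and -5.2, Plasmax-TE+Fe between -3.6 and 15.4 and Plasmax between 30.5 and 35.2. Library 87, replicate 1 of Plasmax-TE, and library 88, replicate 2 of Plasmax-TE+Fe, stood apart from all others on component 2. Nothing given tells whether replicate libraries derive from separately grown cells, so every p-value here refers to the spread of these libraries only, and that may be technical. Of 10 hepatocyte markers 10 were measured, and their summed level was 49427 to 53909 CPM in EMEM against 17737 to 32833 CPM (median 25175) in the Plasmax-type libraries (exact permutation p = 0.00909). Of these markers ALB, AFP, APOA1, APOA2, TTR and AHSG were called lower, APOB (-0.29), HNF4A (-0.36) and SERPINA1 (0.40) were not called, and FGB was called higher (0.51). Most of the sum was ALB, AHSG and APOA2, with EMEM means of 18406, 10449 and 9085 CPM. It also holds TTR, given in advance as a marker of this comparison, so the p of the sum is no independent test.

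Of 10459 genes tested, 1733 (16.6%) separated the mean of the 3 Plasmax media from EMEM, with 697 rises (6.66%) and 1036 falls (9.91%), in edgeR's quasi-likelihood test at a Benjamini-Hochberg adjusted p under 0.05. Of these, 977 (9.34% of the genes tested) also had no overlap between the 9 and the 3 libraries, 385 higher (3.68%) and 592 lower (5.66%). Scaled by library size alone instead of TMM factors, the 993 genes called with no overlap split into 503 higher and 490 lower, so the excess of lower genes depended on the scaling. Lack of overlap alone was met by 476 higher (4.55%) and 672 lower genes (6.43%), 171 of which did not pass the test, while 756 called genes overlapped in at least 1 library. Leaving out EMEM replicate 1, 2 or 3 lowered the 1733 calls to 1053, 1135 and 995, and the 977 to 837, 934 and 796. Without libraries 87 and 88 the counts were 2435 and 1573.

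Most of the genes that stood apart moved by a log2 fold change under 1 in at least 1 medium. The log2 fold change against EMEM reached 1 in the medium with the weakest change in 169 of the 977 genes, 72 higher and 97 lower, and it reached 2 in 26 genes. The median log2 fold change of the genes that rose was 0.83 in Plasmax, 0.60 in Plasmax-TE and 0.74 in Plasmax-TE+Fe, and that of the genes that fell was -0.96, -0.64 and -0.80. Since these genes were picked by the same libraries, the values describe them and carry no test. The strongest change was in Plasmax in 589 genes (60.3%), in Plasmax-TE+Fe in 241 (24.7%) and in Plasmax-TE in 147 (15%), and the weakest was in Plasmax-TE in 611 (62.5%). All 3 comparisons use the same EMEM libraries. Taken singly they called 2233 genes in Plasmax (21.4%), 503 in Plasmax-TE (4.81%) and 1009 in Plasmax-TE+Fe (9.65%). The Plasmax-TE count fell to 293, 284 and 259 without EMEM replicates 1, 2 and 3 and to 294 without Plasmax-TE replicate 2. The Plasmax-TE+Fe count fell to 628, 666 and 606 without those EMEM libraries and to 673 and 651 without Plasmax-TE+Fe replicates 1 and 3. Libraries 87 and 88 left out together gave 656 and 1503 genes in these comparisons, and a block for runs of library numbers gave 829 and 1569.

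TXNIP (ENSG00000265972), an arrestin that limits glucose uptake and binds thioredoxin, rose most. Its level was 5.78, 7.67 and 8.03 CPM in the EMEM libraries. It was 601, 438 and 382 CPM in Plasmax, 326, 245 and 213 CPM in Plasmax-TE and 317, 355 and 297 CPM in Plasmax-TE+Fe. Every Plasmax-type library was thus far above every EMEM library, with Plasmax highest. The log2 fold change of the 3 media together was 5.54 ± 0.24 (SE), or 46.6-fold (adjusted p = 5.8e-12), and the media differed among themselves (adjusted p = 0.012, edgeR's 2-coefficient test). ARRDC4 (ENSG00000140450), the related arrestin, had 3 counts in all over the EMEM libraries and 115 over the 9 others. That is a ratio of 12.9 with a 95% interval of 4.30 to 63.4, which covers counting error only. Its adjusted p was 0.00082, and no difference among the Plasmax media passed (adjusted p = 0.42).

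The sugar-sensing list, which holds both arrestins, moved less uniformly. Of its 11 members 4 rose (36.4%, against 6.66% of all genes tested), TXNIP and ARRDC4 among them. All 4 had no overlap, and 2 members fell (18.2%, against 9.91%). The median log2 fold change was 0.14 against 0.002 over all genes tested. KLF10, a transcriptional repressor induced by glucose, stood at 16.7, 12.4 and 12.8 CPM in EMEM and at 30.3 to 61.7 CPM (median 44.7) in the other libraries (1.71 ± 0.21, adjusted p = 1.1e-05). The transcription factor KLF11 also rose (1.13). G6PC, the phosphatase subunit that frees glucose for export, went the other way, from 65.5, 49.4 and 50.1 CPM to 1.40 to 40.1 CPM (median 27.4). Its log2 fold change was -3.16 in Plasmax, -0.50 in Plasmax-TE and -1.04 in Plasmax-TE+Fe, and the media differed (adjusted p = 0.00050). MLXIPL, which encodes ChREBP itself, fell by 0.70, a call lost without EMEM replicate 1 (-0.55, adjusted p = 0.051).

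The 250 bases before the start of both arrestin genes are shown because E-boxes paired as CACGNG, 5 free bases and CACGNG are the known binding element of MondoA and ChREBP in the TXNIP promoter. Sequences are from RefSeq (GRCh38.p14), 5′ to 3′ on the gene's strand. Capitals mark matches to that pair, to the single E-box CACGTG and to the CCAAT box on either strand (ATTGG on the strand shown); ACGTG, a further motif searched, overlaps every CACGTG.
TXNIP, chr1:145996580-145996829, minus strand: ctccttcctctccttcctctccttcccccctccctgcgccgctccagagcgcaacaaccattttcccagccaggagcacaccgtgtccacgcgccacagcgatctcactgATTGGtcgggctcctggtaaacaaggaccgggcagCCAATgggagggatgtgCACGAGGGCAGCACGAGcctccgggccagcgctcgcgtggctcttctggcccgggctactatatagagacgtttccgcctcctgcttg
ARRDC4, chr15:97960453-97960702, plus strand: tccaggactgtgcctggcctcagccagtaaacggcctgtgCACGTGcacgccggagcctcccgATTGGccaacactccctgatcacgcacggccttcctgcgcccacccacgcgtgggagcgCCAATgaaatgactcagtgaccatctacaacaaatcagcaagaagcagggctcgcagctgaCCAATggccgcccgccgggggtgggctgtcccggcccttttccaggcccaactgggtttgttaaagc
The pair occurs in the first of the 2 TXNIP windows as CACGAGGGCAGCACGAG, beginning 88 bases before the start, between CCAAT and the start site. Over all 35116 windows of this length 0.0456% hold the pair, and of the 8147 tested genes with a window 12 (0.147%) do. Among the genes that rose with no overlap and have a window it was found in 1 of 298, and among those that fell in 1 of 451. The ARRDC4 window holds CACGTG beginning 210 bases before the start, a motif present in 6.34% of all windows. It was found in 11.5% of the tested genes with a window and in 31 of the 298 that rose with no overlap (10.4%). A match describes these letters and is no evidence of binding.

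**Figure D1:**
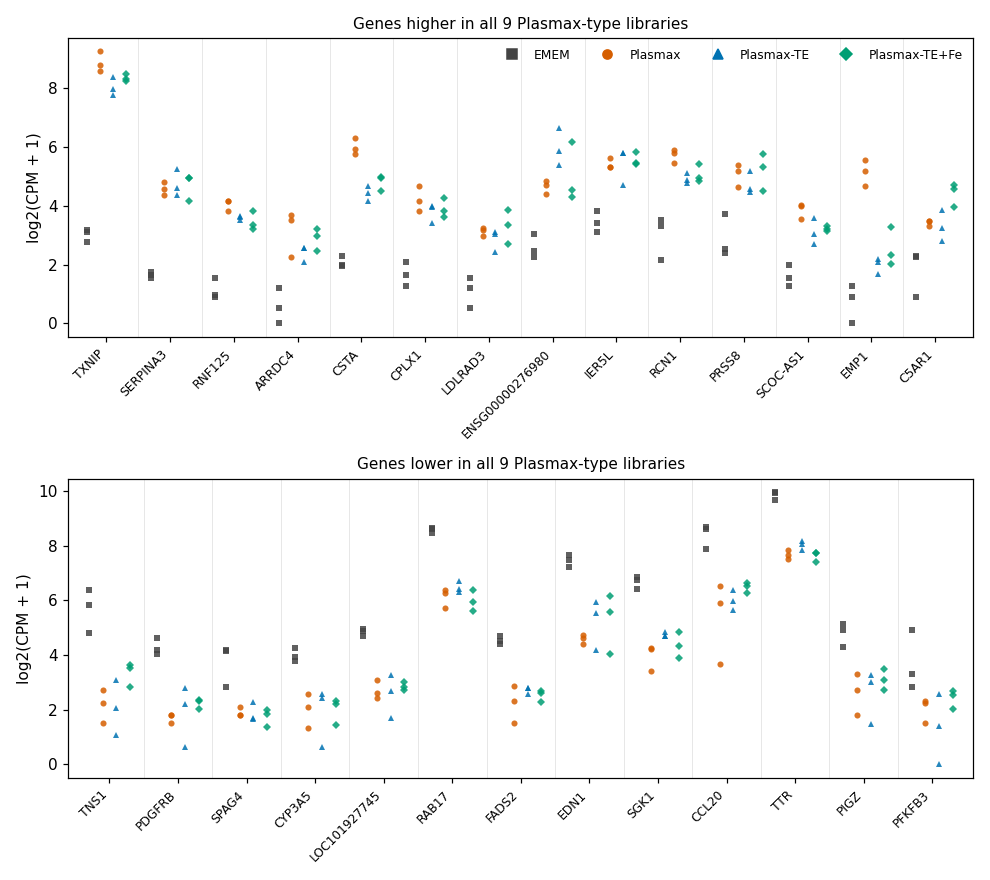
Level of the 14 genes with the largest rises and 13 of the 14 with the largest falls, ranked by the medium with the weakest change, as log2(CPM + 1) in each of the 12 libraries; squares are EMEM, circles Plasmax, triangles Plasmax-TE and diamonds Plasmax-TE+Fe. In each gene the 9 Plasmax-type libraries lie on 1 side of the 3 EMEM libraries, which is how the genes were chosen; TXNIP shows the widest gap, from at most 8.03 CPM to at least 213 CPM.

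SERPINA3 (ENSG00000196136), the secreted protease inhibitor antichymotrypsin, rose from 1.93, 2.13 and 2.36 CPM to 16.8 to 36.8 CPM (median 22.9). Its log2 fold change of 3.49 ± 0.35 (adjusted p = 7.1e-07) was 3.39, 3.57 and 3.50 in Plasmax, Plasmax-TE and Plasmax-TE+Fe, a narrower range than for any other of the 14 genes except IER5L. The ubiquitin ligase RNF125 rose from 1.93, 0.852 and 0.945 CPM to 8.17 to 16.9 CPM (median 11.4). IER5L, an immediate early response gene, rose from 9.63, 7.67 and 13.2 CPM to 24.9 to 55 CPM (median 42.3), by 2.11 ± 0.26 with values of 2.04, 2.12 and 2.18 in the 3 media. For SERPINA3, RNF125 and IER5L no difference among the Plasmax media passed (adjusted p = 0.91, 0.29 and 0.93).

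CSTA and EMP1 rose most in Plasmax. CSTA (ENSG00000121552), the protease inhibitor cystatin A, stood at 2.83 to 3.85 CPM in EMEM, at 53.3, 59.1 and 77.7 CPM in Plasmax and at 16.8 to 30.1 CPM in the libraries of the media prepared without trace elements. The lowest Plasmax library was above all 6 of these (difference among media, adjusted p = 1.0e-04). EMP1, an epithelial membrane protein, never exceeded 3 counts per EMEM library and reached 35.1, 46.1 and 24.2 CPM in Plasmax but only 2.17 to 8.60 CPM without trace elements or with iron alone (adjusted p = 1.1e-05). In Plasmax-TE alone its change did not pass (1.80 ± 0.74, adjusted p = 0.19). From 5 EMEM counts to 252 counts in the 9 libraries the ratio was 16.9 with a 95% counting interval of 7.16 to 52.6. The complement receptor C5AR1 was instead higher in Plasmax-TE+Fe, at 24.9, 14.4 and 22.4 CPM, than in Plasmax and Plasmax-TE (5.96 to 13.6 CPM) or in EMEM (at most 3.85 CPM; adjusted p = 0.043 among media).

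The remaining genes among the 14 with the largest rises are CPLX1, a complexin of vesicle fusion (2.76 ± 0.35), LDLRAD3, a membrane protein (2.67 ± 0.47), RCN1, a calcium-binding protein of the endoplasmic reticulum (2.31 ± 0.26), and PRSS8, the membrane protease prostasin (2.27 ± 0.34). The unnamed gene ENSG00000276980 rose by 2.85 ± 0.45, and the antisense transcript SCOC-AS1 by 2.13 ± 0.36. The strand setting of the counting is not known here, so reads of SCOC-AS1 cannot be told apart from those of an overlapping gene. All 6 genes were called without overlap in every library, with adjusted p between 3.5e-06 and 5.2e-04, and in none did a difference among the Plasmax media pass. At the edge of the rule for these 14 genes, C5AR1 was the last inside with a weakest change of 1.77, and MYCL at 1.76 was the first outside.

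TNS1 (ENSG00000079308), which encodes tensin, a protein of focal adhesions, fell most in its weakest medium. Its EMEM libraries held 55.8, 81.8 and 26.9 CPM, and the other libraries 1.09 to 11.3 CPM (median 5.51), a log2 fold change of -3.40 ± 0.31 (adjusted p = 2.1e-07). TTR (ENSG00000118271), transthyretin, the plasma carrier of thyroxine and retinol-binding protein, stood at 996, 981 and 808 CPM in EMEM. It was 200, 182 and 228 CPM in Plasmax, 285, 264 and 231 CPM in Plasmax-TE and 166, 210 and 213 CPM in Plasmax-TE+Fe. These 9 values lie close together, and the highest of them is far below the lowest EMEM library. TTR fell by 2.09 ± 0.11 (adjusted p = 1.1e-10), and no difference among the Plasmax media passed (adjusted p = 0.17). In bulk RNA, fewer cells that make a transcript cannot be told apart from less of it per cell.

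RAB17 (ENSG00000124839), a small GTPase of epithelial membrane traffic, fell from 351, 390 and 402 CPM to 47.8 to 103 CPM (median 78.5), with similar values of -2.43, -2.10 and -2.59 in the 3 media. The secreted signals EDN1, endothelin, and CCL20, a chemokine, both fell, EDN1 from 150 to 204 CPM in EMEM to 15.4 to 70.2 CPM, and CCL20 from 232 to 409 CPM to 11.6 to 99.3 CPM. SGK1, a kinase induced by glucocorticoids and insulin signalling, fell from 84.1 to 114 CPM to 9.78 to 27.9 CPM (-2.36 ± 0.17, adjusted p = 8.4e-09). Low-level genes among the 14 were PDGFRB, a growth factor receptor of mesenchymal cells (-2.60 ± 0.31), SPAG4, a nuclear envelope protein (-2.31 ± 0.33), CYP3A5, a drug-metabolising enzyme (-2.23 ± 0.34), and PIGZ, a mannosyltransferase of membrane anchors (-2.13 ± 0.29). The uncharacterised LOC101927745 (-2.26 ± 0.24) was also among them. PFKFB3, which makes an activator of glycolysis, was last inside the 14 (weakest change -1.77, with SMIM3 at -1.74 outside). It stood at 8.99, 29.4 and 6.14 CPM in EMEM, and without EMEM replicate 2 its call was lost (-1.18, adjusted p = 0.16).

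**Figure D2:**
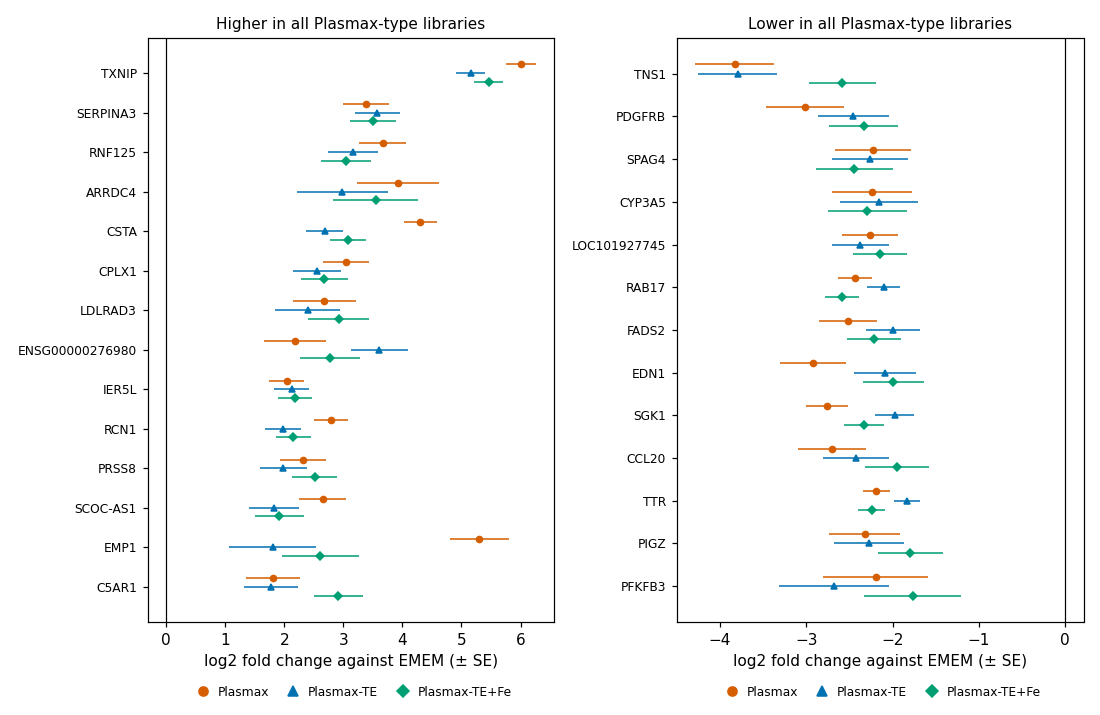
Log2 fold change against EMEM (x axis, ± SE, 3 libraries per medium) of the same 27 genes in Plasmax (circles), Plasmax-TE (triangles) and Plasmax-TE+Fe (diamonds), whose comparisons share the EMEM libraries. SERPINA3, IER5L, RAB17 and TTR sit close together in the 3 media, while CSTA and EMP1 rise furthest in Plasmax.

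Genes of sterol synthesis fell together. Of 22 measured members of the list of cholesterol synthesis and uptake 18 fell (81.8%, against 9.91% of all genes tested). All 18 had no overlap, and none rose. The median log2 fold change was -1.37 against 0.002 over all genes tested. Under the alternatives tried 17 to 20 members fell. MSMO1 (ENSG00000052802), a sterol demethylase that uses iron, stood at 132, 128 and 135 CPM in EMEM. It held 33.9, 38.1 and 40.5 CPM in Plasmax, 55.8, 47.7 and 69.1 CPM in Plasmax-TE and 38.7, 40.6 and 31.4 CPM in Plasmax-TE+Fe. Plasmax-TE thus lay between EMEM and the other 2 media (difference among media, adjusted p = 0.035), and the 3 media together were lower by -1.61 ± 0.12 (adjusted p = 2.5e-08).

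Enzymes of early and of late steps fell. HMGCS1, which makes the precursor HMG-CoA, changed by -1.41, SQLE, squalene epoxidase, by -1.89, and FDFT1, squalene synthase, by -1.35 ± 0.12. DHCR7, a late reductase, fell from 101, 76.7 and 89.8 CPM to 20.2 to 44.6 CPM (median 23.0). The transcription factor SREBF2 (-0.98) fell as well. The 4 members not called were PMVK, TM7SF2, NSDHL and STARD4, of which TM7SF2 and STARD4 were called without Plasmax-TE replicate 1 (adjusted p = 0.037 and 0.036). Differences among the Plasmax media passed in 4 of the 22.

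**Figure D3:**
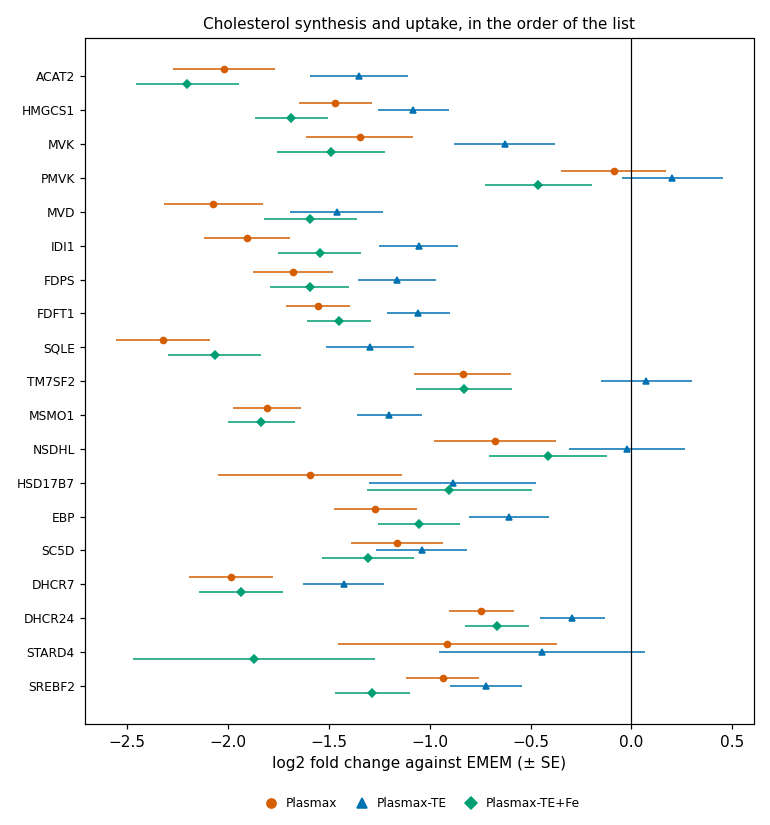
Log2 fold change against EMEM (x axis, ± SE) of 19 of the 22 measured genes of cholesterol synthesis and uptake, from the first enzymes at the top to sterol transport and regulation at the bottom, in the 3 Plasmax media. Nearly all points lie below 0; the median over all 22 was -1.49 in Plasmax, -1.06 in Plasmax-TE and -1.52 in Plasmax-TE+Fe.

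The promoter window of MSMO1 is shown for its CCAAT boxes (capitals), the motif of the factor NF-Y, which is known to act beside SREBP at sterol genes.
MSMO1, GRCh38.p14, chr4:165327419-165327668, plus strand: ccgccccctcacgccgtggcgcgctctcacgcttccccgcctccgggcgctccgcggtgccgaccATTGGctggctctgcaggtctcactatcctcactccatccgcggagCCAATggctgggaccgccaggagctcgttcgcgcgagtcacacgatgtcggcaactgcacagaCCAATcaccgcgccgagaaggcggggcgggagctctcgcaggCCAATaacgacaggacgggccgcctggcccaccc
CCAAT or its complement ATTGG begins 185, 139, 76 and 34 bases before the start. Of the 15 cholesterol genes with a window 14 hold the motif (93.3%), against 42.0% of the 8147 tested genes with a window and 32.0% of all windows. Sterol genes are known for this motif, so the share describes the list. Among all genes that fell with no overlap, 203 of 451 with a window held CCAAT, a share near the 42.0%. The sterol element CACNCCAC was found in 3 of the 15, against 6.49% of the tested genes with a window.

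Fatty acid genes fell on both the synthetic and the oxidative side. In synthesis and desaturation 6 of 15 members fell (40.0%, against 9.91% of all genes tested), 4 of them with no overlap. Only 1 rose (list median -0.31). The desaturases SCD and FADS2 fell from 699, 742 and 754 CPM to 238 to 350 CPM (-1.37 ± 0.11) and from 21.8, 25.1 and 20.3 CPM to 1.86 to 6.27 CPM (-2.24 ± 0.24). FADS1, a further desaturase (-1.08 ± 0.13), and ACSS2, which activates acetate (-1.21 ± 0.17), fell too, and ELOVL5, an elongase, rose (0.58). The rise of ELOVL5 did not hold without any single EMEM library. In oxidation, ketogenesis and lipid storage 11 of 18 fell (61.1%), 4 with no overlap, and 1, the carnitine transferase CPT1A, rose by 0.58 (median -0.73). The call of CPT1A was lost without EMEM replicate 3 (0.45, adjusted p = 0.097), and 7 of the 11 falls were called with the 9 libraries taken as 1 group. FABP1, the liver fatty acid binding protein, fell from 958, 851 and 990 CPM to 151 to 401 CPM (median 245). Its log2 fold change was -2.03 in Plasmax, -1.40 in Plasmax-TE and -2.34 in Plasmax-TE+Fe (adjusted p = 0.0022 among media). PLIN2, a coat protein of lipid droplets, fell by 0.96 ± 0.14, ACAA2, a thiolase, by 0.93 ± 0.13, and the nuclear receptor PPARA by 0.86 ± 0.15.

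Of 24 measured HIF targets outside glycolysis 16 fell (66.7%, against 9.91% of all genes tested), 12 with no overlap, and none rose (median -0.94). Under the alternatives 12 to 18 fell. P4HA1 (ENSG00000122884), a collagen prolyl hydroxylase, stood at 196, 267 and 210 CPM in EMEM and at 50.6 to 124 CPM (median 89.7) elsewhere. BNIP3 (ENSG00000176171), a mitophagy receptor, fell from 182, 242 and 176 CPM to 57.7 to 112 CPM (median 71.1). Both fell in all 3 media, P4HA1 by 1.40 ± 0.16 (adjusted p = 3.1e-06) and BNIP3 by 1.32 ± 0.16 (adjusted p = 6.1e-06), with no passing difference among media. NDRG1, a stress-induced gene, fell most in Plasmax-TE (-1.03 in Plasmax, -2.29 in Plasmax-TE, -1.60 in Plasmax-TE+Fe), and LOX, lysyl oxidase, most in Plasmax (-3.69, -1.74 and -1.18). Both differed among the media (adjusted p = 0.0055 each).

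The window before BNIP3 is shown because it holds the letters ACGTG, the core of the hypoxia response element, on both strands within CACGTG (capitals).
BNIP3, GRCh38.p14, chr10:131981924-131982173, minus strand: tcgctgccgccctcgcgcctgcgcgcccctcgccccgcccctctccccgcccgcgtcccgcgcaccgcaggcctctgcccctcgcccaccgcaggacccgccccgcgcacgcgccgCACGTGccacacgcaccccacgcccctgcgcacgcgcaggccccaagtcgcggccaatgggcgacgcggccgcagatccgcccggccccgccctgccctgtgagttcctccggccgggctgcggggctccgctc
The palindrome begins 134 bases before the start. ACGTG was found in 14 of the 19 HIF targets with a window (73.7%), in 29.4% of the tested genes with one and in 18.5% of all windows; HIF targets are known by such elements, so the share describes the list. Of the genes that fell with no overlap 145 of 451 with a window held it (32.2%).

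In glucose uptake and glycolysis 10 of 20 members fell and none rose (median -0.58), 6 of them with no overlap, and 6 fell when EMEM replicate 2 was left out. ALDOA, the main aldolase of glycolysis, fell from 989, 1239 and 1038 CPM to 357 to 752 CPM (median 569), ALDOC from 25.7, 31.9 and 21.3 CPM to 3.14 to 13 CPM. SLC16A3, a lactate exporter, fell from 422, 450 and 411 CPM to 162 to 318 CPM (-0.93 ± 0.13, adjusted p = 3.1e-05). The glucose transporter SLC2A3 (-1.40), PGK1 (-0.82) and LDHA, which makes lactate (-0.63), were also lower; the call of LDHA was lost without EMEM replicate 2 (-0.48, adjusted p = 0.14). Of 11 genes of gluconeogenesis and FOXO response 4 fell (36.4%, against 9.91% of all genes tested). They were G6PC, PCK1, which makes phosphoenolpyruvate (-1.78 ± 0.32), KLF15, a fasting-induced factor (-1.70 ± 0.28), and IGFBP1, which binds insulin-like growth factors (-1.02 ± 0.19). IGFBP1 differed among the media, with -1.81 in Plasmax, -1.06 in Plasmax-TE and -0.18 in Plasmax-TE+Fe (adjusted p = 0.0011), and its 3883 to 5208 CPM in Plasmax-TE+Fe overlapped with 4084 to 5992 CPM in EMEM. With the 9 libraries taken as 1 group G6PC and IGFBP1 were not called. SLC6A8, the creatine transporter, fell from 54.6, 69.9 and 42.5 CPM to 13.5 to 21.9 CPM with like values of -1.72, -1.51 and -1.45 in the 3 media. It was 1 of 3 lower genes (60.0%, against 9.91% of all genes tested) among the 5 measured of creatine and carnitine handling. SLC6A8 alone of these 3 had no overlap. The number lower was 2 in 13 of 26 alternatives, among them each single EMEM library left out.

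Plasma carrier and apolipoprotein genes had list medians below 0 in all 3 media, while acute phase and complement genes moved in both directions. Of 12 measured plasma carrier proteins 7 fell (58.3%, against 9.91% of all genes tested), 6 with no overlap. In the other direction 3 rose (25.0%, against 6.66%), 2 with no overlap, and the median was -0.86. ALB (ENSG00000163631), albumin, the main plasma protein, stood at 17165, 17713 and 20340 CPM in EMEM. It was at 4155, 3885 and 3989 CPM in Plasmax, 10846, 10432 and 10580 CPM in Plasmax-TE and 7880, 8053 and 7068 CPM in Plasmax-TE+Fe. The 4 media did not overlap with each other. AFP, the fetal counterpart of albumin, kept the same order, with 5037 to 6829 CPM in EMEM, 2053 to 2366 CPM in Plasmax-TE, 1255 to 1599 CPM in Plasmax-TE+Fe and 772 to 914 CPM in Plasmax. Differences among the Plasmax media passed for ALB (adjusted p = 1.1e-06) and AFP (adjusted p = 1.3e-05). TF, transferrin, fell from 3674, 2727 and 3205 CPM to 657 to 1733 CPM. The heme carrier HPX rose by 1.84, and ORM1 and ORM2, near-identical genes between which reads can be misassigned, rose by 0.95 and 0.64. ORM2 was not called without EMEM replicate 3 (0.60, adjusted p = 0.058).

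Of 12 apolipoprotein and lipoprotein assembly genes 8 fell (66.7%, against 9.91% of all genes tested), 3 with no overlap. None rose (median -0.80, 6 to 10 lower under the alternatives). APOA2 fell from 9721, 9212 and 8323 CPM to 4850 to 5852 CPM, with -0.89, -0.75 and -0.78 in the 3 media. APOA1, the main protein of high-density lipoprotein, fell by 0.80 ± 0.13 and LCAT, which esterifies cholesterol there, by 1.59 ± 0.16. Of 18 coagulation factors and inhibitors 8 fell (44.4%), 7 with no overlap, among them F10 (-1.22 ± 0.14) and TFPI, the inhibitor of the tissue factor pathway (-0.83 ± 0.11). The list median was -0.47 in Plasmax, 0.13 in Plasmax-TE and -0.32 in Plasmax-TE+Fe. Rises made up 16.7%, against 6.66% of all genes tested. The 3 that rose were the fibrinogen chains FGA (0.57), FGB (0.51) and FGG (0.46), none without overlap. No chain was called without EMEM replicate 2 or without the medium Plasmax-TE, and 1 was called without EMEM replicate 3 or Plasmax replicate 1.

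Acute phase and complement genes had 4 of 15 members higher, 3 with no overlap, and 3 lower (median 0.27). Both shares were above those over all genes tested, 6.66% higher and 9.91% lower. Beside SERPINA3, HP, the hemoglobin carrier haptoglobin, rose from 15.4, 12.8 and 12.8 CPM to 33.5 to 142 CPM (median 60.2), by 2.14 ± 0.28. SERPING1, the inhibitor of the first complement protease, rose from 17.3, 16.6 and 12.3 CPM to 26.5 to 166 CPM (median 43.3), by 1.94 ± 0.30. Both were highest in Plasmax-TE replicate 1, 1 of the libraries that stood apart, and both differed among the media (adjusted p = 0.020 and 0.0028). Reads of HP can be shared with its near copy HPR. Complement C5 rose by 0.77, a call lost without EMEM replicate 2 (adjusted p = 0.074) or 3 (adjusted p = 0.082). ITIH1 (-2.12 ± 0.61), ITIH3 (-0.90) and C4BPB (-0.54) fell, of which ITIH3 alone was called without the medium Plasmax and none with the 9 libraries taken as 1 group. ITIH1 had 4.25 to 8.99 CPM in EMEM, at most 0.931 CPM in Plasmax and 17.3 CPM in Plasmax-TE replicate 1, and its call was lost without EMEM replicate 1 (adjusted p = 0.092) or 2 (adjusted p = 0.091).

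In drug, bile acid and steroid metabolism 10 of 18 fell (55.6%, against 9.91% of all genes tested), 6 with no overlap. Another 2 rose (11.1%, against 6.66%). The median was -0.70, and 6 fell without the medium Plasmax. Without any single EMEM library 1 rose, ABCC3. SULT2A1, which sulfates steroids and bile acids, fell from 276, 271 and 284 CPM to 10.7 to 21.3 CPM in Plasmax, 81.2 to 104 CPM in Plasmax-TE and 35.9 to 50.3 CPM in Plasmax-TE+Fe (adjusted p = 3.4e-06 among media). NR0B2, a repressor of bile acid synthesis, fell by 1.32 ± 0.15, and ABCC3, a bile acid exporter, rose from 28.2, 32.8 and 35.9 CPM to 52.5 to 85.1 CPM (1.07 ± 0.16). Of 14 liver transcription factors 7 fell, 4 with no overlap, and none rose. Both shares were above those over all genes tested, 9.91% lower and 5.66% lower with no overlap. Each of the 7 fell by a log2 fold change under 1: ONECUT2 changed by -0.64 ± 0.13 and RXRA by -0.54 ± 0.12. The number that fell was 3 without EMEM replicate 3 and 3 without the medium Plasmax. HNF4A, the central hepatocyte factor, stood at 158 to 189 CPM in EMEM and 103 to 173 CPM in the 9 libraries and was not called (-0.36 ± 0.12, adjusted p = 0.056; without Plasmax replicate 3 -0.41, adjusted p = 0.020).

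**Figure D4:**
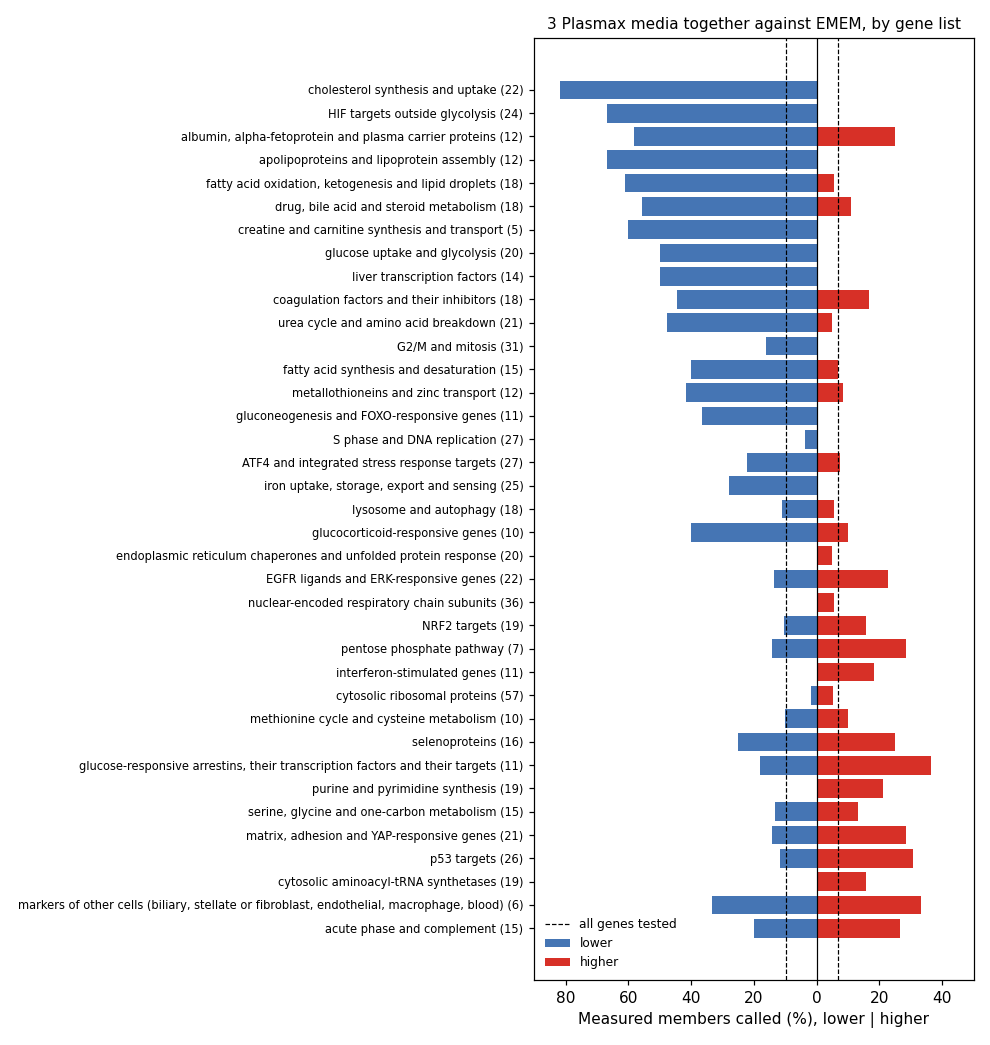
Share of the measured members (number in parentheses) of each gene list that were lower (bars to the left) or higher (bars to the right) in the 3 Plasmax media together than in EMEM, in percent, ordered by the list's median log2 fold change; dashed lines mark 9.91% lower and 6.66% higher over all genes tested. Cholesterol synthesis (81.8% lower) leads on the left, followed by HIF targets and apolipoproteins (66.7% lower each). Sugar-responsive genes, TXNIP and ARRDC4 included, have the largest share on the right (36.4%).

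Enzymes of amino acid breakdown fell in 10 of 21 measured cases (47.6%, against 9.91% of all genes tested), 7 with no overlap. Of the others 1, GOT2, rose by 0.63. The median was -0.33, and 6 fell without the medium Plasmax. ARG1, the arginase of the urea cycle, stood at 6.42, 8.94 and 10.4 CPM in EMEM, was at 0 in all 3 Plasmax libraries and 1 Plasmax-TE+Fe library, and reached at most 1.62 CPM elsewhere. Its 53 EMEM counts against 9 in the 9 libraries give a 17.5-fold lower level with a 95% counting interval of 8.57 to 40.4. AGXT, a glyoxylate-detoxifying transaminase, fell from 52.0, 27.7 and 40.6 CPM to 1.5 to 3.98 CPM in Plasmax and Plasmax-TE+Fe and to 13, 14.4 and 10.3 CPM in Plasmax-TE (adjusted p = 0.0011 among media). TAT, which starts tyrosine breakdown, fell by 1.10 ± 0.24 and AASS, of lysine breakdown, by 1.86 ± 0.35. The folate enzyme ALDH1L1 fell from 20.5, 17.0 and 19.8 CPM to 1.49 to 9.75 CPM (-2.03 ± 0.26).

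Genes of metal handling were among those that differed from EMEM in all 3 media together. Of 25 iron genes 7 fell (28.0%, against 9.91% of all genes tested), 6 with no overlap, and none rose (median -0.10). Those that fell included TF, the ferroxidase CP (-1.30 ± 0.19), the metal importer SLC39A14 (-0.94 ± 0.14), the ferritin autophagy receptor NCOA4 (-0.72 ± 0.10) and the transferrin receptor TFRC (-1.11). NCOA4 stood at 502, 466 and 521 CPM in EMEM, 220 to 243 CPM in Plasmax and 303 to 370 CPM in the media prepared without trace elements. Metallothioneins, small zinc- and copper-binding proteins whose near-identical genes can share reads, were lower in all 3 media for MT1F, from 152, 131 and 204 CPM to 51.4 to 78.7 CPM in Plasmax, 20.7 to 32.6 CPM in Plasmax-TE and 8.47 to 15.1 CPM in Plasmax-TE+Fe. MT1G fell by 2.30 ± 0.20, with 1 Plasmax library inside the EMEM range. In the list of metallothioneins and zinc transport 5 of 12 fell (41.7%, against 9.91% of all genes tested), 1 with no overlap. SLC39A10, a zinc importer, rose by 0.99. Without EMEM replicate 3 the counts of lower and higher genes were 3 and 0, and the count of lower genes was also 3 without Plasmax-TE or without Plasmax-TE+Fe. Some of the 5 had a log2 fold change above 0 in Plasmax and were lower only in the media prepared without trace elements. The list median was 0.20 in Plasmax, -0.68 in Plasmax-TE and -0.28 in Plasmax-TE+Fe. Of 16 selenoproteins 4 rose and 4 fell (25.0% each, against 6.66% higher and 9.91% lower over all genes tested). GPX1, a cytosolic glutathione peroxidase, rose from 37.9, 30.2 and 43.5 CPM to 68.5 to 116 CPM (1.21 ± 0.15), while the secreted GPX3 (-1.79 ± 0.15) and SELENOP (-1.06 ± 0.14) fell.

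Genes that respond to growth factors and hormones moved in both directions. Of 22 EGFR ligands and ERK-responsive genes 5 rose, 2 with no overlap, and 3 fell (median 0.00). These shares were 22.7% and 13.6%, against 6.66% higher and 9.91% lower over all genes tested. No overlap was met by 13.6% of the list, against 9.34%. The counts were 2 higher without EMEM replicate 3, 8 higher without Plasmax-TE replicate 1 and 1 lower without EMEM replicate 1. AREG, a ligand of the EGF receptor, reached 783, 746 and 516 CPM in Plasmax but overlapped with EMEM (27, 47.3 and 45.3 CPM) in Plasmax-TE replicate 1 (24.4 CPM). DUSP6, a phosphatase of ERK, fell from 529, 575 and 614 CPM to 194 to 486 CPM (-0.66 ± 0.15). Of 10 glucocorticoid-responsive genes 4 fell with no overlap (40.0%), SGK1, PER1 (-1.08), DUSP1 (-0.78) and TAT. TSC22D3 rose, from 0.852 to 6.42 CPM to 7.58 to 70.2 CPM (2.62 ± 0.38). Without EMEM replicate 1 neither PER1 nor DUSP1 was called (adjusted p = 0.062 and 0.078), and PER1 was not called without EMEM replicate 3 (adjusted p = 0.063). TSC22D3 was highest in Plasmax, where its log2 fold change was 4.03 against 1.46 in Plasmax-TE and 2.37 in Plasmax-TE+Fe.

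Of 26 p53 targets 8 rose (30.8%, against 6.66% of all genes tested), 6 with no overlap. In the same list 3 fell (11.5%, against 9.91%), and the median was 0.16. ZMAT3, an RNA-binding protein, rose from 44.3, 50.3 and 52.0 CPM to 55.8 to 109 CPM (0.66 ± 0.13) and FDXR, a mitochondrial reductase, from 74.4, 68.1 and 60.0 CPM to 89 to 179 CPM (0.83 ± 0.19). The number that rose was 3 without EMEM replicate 2, 4 without EMEM replicate 3 and 4 without the medium Plasmax, and the number that fell was 1 without EMEM replicate 1 and 0 without EMEM replicate 3. Of 21 matrix, adhesion and YAP-responsive genes 6 rose (28.6%, against 6.66%), none of them without overlap. TNS1, LOX and AJUBA fell with no overlap (14.3% lower, against 9.91%). Without EMEM replicates 1, 2 and 3 the number that rose was 3, 3 and 2, and it was 1 without the medium Plasmax. AJUBA, an adaptor of cell junctions, fell from 283, 203 and 316 CPM to 145 to 180 CPM, with nearly equal values of -0.77, -0.79 and -0.74 in the 3 media.

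Markers of other cell types were measured in 6 of 22 cases, and the blood and endothelial markers of the list are not among them. Their summed level was 2712 to 3108 CPM in EMEM and 1222 to 2811 CPM (median 2361) in the Plasmax-type libraries (exact permutation p = 0.0273), and most of it was LYZ, lysozyme, at 2173, 2534 and 2473 CPM against 739 to 1759 CPM. The epithelial genes EPCAM (0.50 ± 0.13) and KRT19 (0.99 ± 0.23) rose, LYZ and PDGFRB fell, and SOX9 and ACTA2 were not called; ACTA2 was without Plasmax-TE replicate 1 (0.48, adjusted p = 0.046). EPCAM was not called without EMEM replicate 3 (adjusted p = 0.070), nor KRT19 without the medium Plasmax (adjusted p = 0.38). KRT19 was at 473, 712 and 625 CPM in Plasmax and at 88.8 to 263 CPM in the other 2 Plasmax media, against 111 to 148 CPM in EMEM. The part of these markers in the lower hepatocyte genes was not tested.

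Some of these genes also differed among the 3 Plasmax media. Among the 3 Plasmax media 678 genes differed (6.48%), and of the 977 genes that stood apart from EMEM 139 did (14.2%). In 119 of the 139 the change from EMEM was strongest in Plasmax, and in 122 it was weakest in Plasmax-TE. The 678 became 412 and 268 without Plasmax replicates 1 and 2, 1106 without Plasmax-TE+Fe replicate 2 and 1334 with a block for runs of library numbers. The lowest p among media fell to RAB3B, ALB, SULT2A1, EMP1, ACADSB and AFP. RAB3B, a GTPase of vesicle release, stood at 16.0, 17.9 and 13.7 CPM in EMEM, 24.4, 27 and 22.3 CPM in Plasmax-TE, 32.3, 34.4 and 38.3 CPM in Plasmax-TE+Fe and 95.3, 110 and 106 CPM in Plasmax (adjusted p = 4.2e-07). ACADSB, a dehydrogenase of branched-chain amino acid breakdown, ran the other way, from 336, 279 and 311 CPM in EMEM through 232 to 259 and 156 to 160 CPM to 82.1 to 94.7 CPM. In 5 of these 6 genes no library of any medium overlapped with another medium; EMP1 overlapped between Plasmax-TE and Plasmax-TE+Fe.

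**Figure D5:**
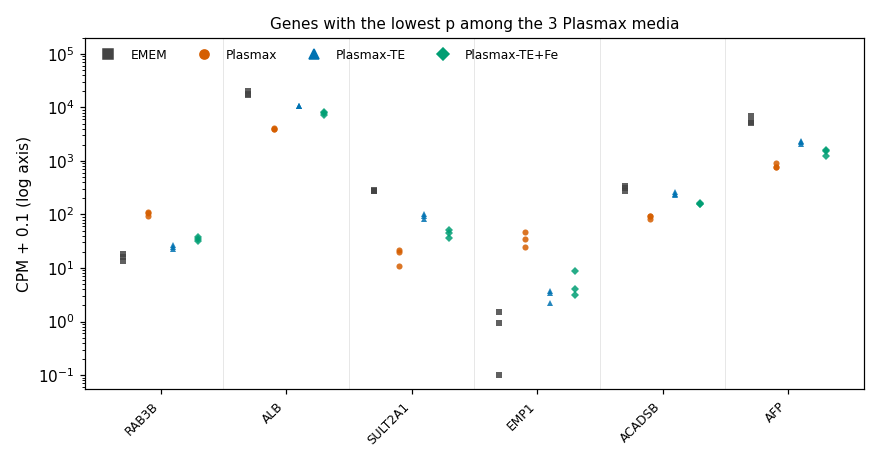
Level of the 6 genes with the lowest p among the 3 Plasmax media, as CPM + 0.1 on a log axis, in each of the 12 libraries. All 6 genes share the order EMEM, Plasmax-TE, Plasmax-TE+Fe, Plasmax by median, upward for RAB3B and EMP1 and downward for ALB, SULT2A1, ACADSB and AFP.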

How the data were processed

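The authors deposited raw counts per gene for 12 QuantSeq libraries, whole numbers without normalization. Per the submitters' processing notes the build was hg19 (GRCh37) and the tools included STAR 2.7.5b, cutadapt 1.16, FastQC 0.72, limma 3.40.6 and featureCounts 1.6.3; annotation and strand setting are not given in the sources used here. Of 10994 entries, 54 repeated ones were dropped, leaving 10940 genes. Every gene reached at least 4.04 CPM in its third-highest library, so genes below that level were not analysed here. Promoter windows of another build were matched by symbol.

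In R 4.3.3 with edgeR 4.0.16, filterByExpr (minimum count 10, minimum total count 15) left 10459 genes. One quasi-likelihood model of the 4 media with TMM factors (8 residual degrees of freedom) gave all contrasts, two-sided, with Benjamini-Hochberg adjustment over all genes at 0.05. Standard errors come from the F statistic (log2 fold change over its square root). The test was tried on simulated data. Among genes with no overlap, a call and a mean of at least 5 CPM, the 14 highest and 14 lowest by their weakest medium were taken. The 6 with the lowest p among media came from the same genes. Up to 4 called genes of each list with the lowest p were added, whatever their overlap or level. Some genes chosen by the rule, or held in the lists and their counts, are not reported here, and list members outside the rule, MLXIPL and ELOVL5 for example, were named after their values were seen. The members and the 37 lists, some of which share genes, were chosen with earlier results of these data known. Alternatives were DESeq2 1.42.0, limma-voom (limma 3.58.1), library size alone, RLE factors, other low-count filters, a replicate block, a block for 3 runs of library numbers (85 to 96), 2 groups, and each library or medium left out.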

Additional observations from a re-analysis of the deposited data

Results flagged for a closer look

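Of the 133 genes examined, 7 had 1 library apart from the other 8 among the 9 Plasmax-type libraries, by the ratio of its gap to the whole range (critical value 0.493). Chance gives such a flag in about 1 of 20 groups, and the 9 libraries come from 3 media. Plasmax-TE replicate 1 was the high library for ALDOC (ratio 0.506, at 13 CPM against 3.14 to 8.01 CPM), ITIH1 (0.741, at 17.3 against 0 to 4.50 CPM), HP (0.572, at 142 against 33.5 to 79.9 CPM) and SERPING1 (0.516, at 166 against 26.5 to 94 CPM). Plasmax-TE replicate 3 was the high one for DHCR7 (0.669, at 44.6 against 20.2 to 28.3 CPM) and FADS1 (0.504, at 116 against 58.6 to 87.2 CPM). For AJUBA it was Plasmax-TE+Fe replicate 1 (0.567, at 180 against 145 to 161 CPM). Except in ITIH1, the 9 libraries still lay on 1 side of EMEM in each of these genes.

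A further flag marks 47 of these genes whose change from EMEM differed among the Plasmax media in edgeR's 2-coefficient test, given here by its adjusted p. Among genes higher than EMEM and highest in Plasmax it was 4.2e-07 for RAB3B, 1.1e-05 for EMP1, 4.4e-05 for KRT19, 1.0e-04 for CSTA, AREG and TSC22D3, 0.012 for TXNIP and GART and 0.025 for ZMAT3. GART, a purine synthesis enzyme, stood at 9.37 to 16.0 CPM in EMEM, 33.0 to 50.8 CPM in Plasmax and 18.4 to 18.5 CPM in Plasmax-TE. It was 8.3e-04 for MAT2A, which makes S-adenosylmethionine (23.0 to 43.0 CPM in EMEM, 42.6 to 53.5 CPM in Plasmax, 201 to 225 CPM in Plasmax-TE and 89.1, 135 and 309 CPM in Plasmax-TE+Fe, the highest being library 88), 0.0028 for SERPING1 and 0.020 for HP, both highest in Plasmax-TE, and 0.043 for C5AR1. It was 0.0032 for FGB, 0.015 for FGG, 0.028 for C5 and 0.030 for FGA, with the largest rise in Plasmax-TE in each.

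Among genes lower than EMEM and lowest in Plasmax it was 1.1e-06 for ALB, 3.4e-06 for SULT2A1, 1.1e-05 for ACADSB, 1.3e-05 for AFP, 5.0e-04 for G6PC and 0.0011 for AGXT. It was 0.0044 for TF, 0.0055 for LOX, 0.0062 for NR0B2, 0.010 for F10 and GPX3, 0.013 for NCOA4 and 0.026 for LCAT and CP. It was 0.0011 for IGFBP1, 0.0030 for ITIH3, 0.0053 for C4BPB, 0.010 for ITIH1 and 0.020 for SQLE. Of genes not called against EMEM it was 0.0077 for ACTA2, 0.022 for TM7SF2 and 0.046 for SOX9. Genes lowest in another medium were MT1F (1.9e-05), MT1G (2.5e-05), FABP1 (0.0022), MSMO1 (0.035) and ALDH1L1 (0.049), all lowest in Plasmax-TE+Fe, and NDRG1 (0.0055) and PLIN2 (0.046), lowest in Plasmax-TE, as was SLC2A3 (0.0071).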

How the results depend on the processing

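Of 3448 values under the alternatives for the 133 genes examined, 3360 kept direction and call, 59 in 25 genes lost the call and 22 in 6 genes gained one. No called gene changed direction, but 7 values of the uncalled PMVK and SOX9 did. With 1 library left out PMVK ran from -0.2202 to 0.07448, the latter without EMEM replicate 2, and SOX9 from -0.02807 (without EMEM replicate 3) to 0.07209, with values below 0 also without Plasmax-TE+Fe replicate 3 (-0.004952), Plasmax replicate 1 (-0.02787) and Plasmax-TE replicate 1 (-0.01136). PMVK was 0.06668 without Plasmax-TE+Fe and SOX9 -0.1386 without the medium Plasmax. The 9 libraries taken as 1 group ended the calls of 14 genes: G6PC, TKT, IGFBP1, SLC38A2, ITIH1, ITIH3, DUSP6, KRT19, C4BPB, C5, ELOVL5, FGA, FGB and FGG. The remaining genes, each losing its call without at least 1 EMEM library, were DDIT3, DUSP1, COX5B, MLXIPL, PER1, PFKFB3, LDHA, EPCAM, CPT1A, ORM2 and SLC39A10. Of 149 counts, 125 stayed within 1.5 times. The calls for the mean of the media (1733) were 1058 with 2 groups of 9 and 3 libraries, 1062 without the medium Plasmax and 995 to 2033 with 1 library left out. Called genes with no overlap (977) became 1573 without libraries 87 and 88, 1568 without the medium Plasmax-TE, and 796 to 1234 with 1 library left out. Genes differing among the Plasmax media (678) were 1334 with the library-number block, 26 without Plasmax, 138 without Plasmax-TE, 1377 without Plasmax-TE+Fe and 268 to 1106 with 1 library left out. With 1 library left out the counts in the single media were 1489 to 2642 for Plasmax (2233), 259 to 678 for Plasmax-TE (503) and 606 to 1224 for Plasmax-TE+Fe (1009). The library-number block gave 829 for Plasmax-TE and 1569 for Plasmax-TE+Fe. Over all the alternatives the median log2 fold change of all genes moved by at most 0.049. The cause of these moves was not tested, beyond the fewer libraries. In EMEM, Plasmax and Plasmax-TE the replicate numbers went with the runs of library numbers, and in Plasmax-TE+Fe they did not. Over 18 pairs with the same replicate number, which include pairs of the same run, deviations correlated between -0.433 and 0.173 (4 over 0.1). Libraries of the same run of library numbers correlated between 0.025 and 0.534 (18 pairs, 9 over 0.1) and those of other runs between -0.433 and 0.163 (36 pairs, 2 over 0.1), and the library-number block raised the 1733 to 2334. With the replicate block the counts were 1609, 926, 571, 2079, 440 and 926 in the order given here. With 1 count worth 0.419 to 0.640 CPM, small changes of genes at a few CPM could not be seen.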

Other observations

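Genes of DNA replication, ribosomes and the respiratory chain had few calls. Of 27 S phase genes 1 fell (3.7%, against 9.91% lower over all genes tested), the replication licensing factor CDT1, from 86, 71.1 and 88.8 CPM to 22.6 to 56.6 CPM (-1.14 ± 0.17; edgeR, adjusted p = 7.6e-05). Of 31 genes of G2/M and mitosis 5 fell (16.1%) and none was free of overlap. Without EMEM replicate 2 or 3 or the medium Plasmax 1 of them fell, and without the medium Plasmax-TE 10 did. Of 57 cytosolic ribosomal proteins 3 rose (5.26%, against 6.66% higher over all genes tested) and 1 fell, which was not called without EMEM replicate 3. Scaled by library size alone 9 rose, and 6, 5 and 7 rose without Plasmax-TE replicate 1, Plasmax-TE+Fe replicate 2 and both. The ribosomal protein RPL37 stood at 2467, 2235 and 2431 CPM in EMEM and at 2965 to 3737 CPM elsewhere (0.49 ± 0.10). Of 36 respiratory chain subunits 2 rose (5.56%), and of 20 genes of the unfolded protein response 1 rose (5.0%). Both shares were below the 6.66% higher over all genes tested, and both counts were 0 without EMEM replicate 1 or EMEM replicate 3. COX5B, a subunit of cytochrome oxidase, rose by 0.43 ± 0.12, a call lost without EMEM replicate 1 or 3.

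In metabolic and stress lists the counts of calls moved with single libraries. Over all genes tested 6.66% were called higher and 9.91% lower, 16.6% in either direction, and some of these lists were near those shares. Of 7 genes of the pentose phosphate pathway 2 rose (28.6%), 1 of 7 in 15 of 26 alternatives. The transketolase TKT fell (-0.44 ± 0.14; edgeR, adjusted p = 0.044), a call lost without any single EMEM library, Plasmax replicate 1 or 2, or Plasmax-TE+Fe replicate 1 (adjusted p from 0.0531 to 0.205). Purine and pyrimidine synthesis had 4 of 19 members higher (21.1%), 1 when EMEM replicate 1 or EMEM replicate 2 was left out. Aminoacyl-tRNA synthetases had 3 of 19 higher (15.8%), 0 without EMEM replicate 2, 1 without EMEM replicate 3, 5 without Plasmax-TE+Fe replicate 2 and 8 without libraries 87 and 88.

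ATF4 targets had 2 of 27 higher (7.41%, against 6.66% of all genes tested) and 6 lower (22.2%, against 9.91%). Among the lower were the stress factor DDIT3 (-1.12 ± 0.25) and the amino acid transporter SLC38A2 (-0.57 ± 0.14). The number lower was 1 without EMEM replicate 1 and 2 without EMEM replicate 3. The number higher was 0 without EMEM replicate 1 or 2, Plasmax replicate 1 or Plasmax-TE replicate 2 or 3, 1 without EMEM replicate 3, Plasmax replicate 2 or Plasmax-TE+Fe replicate 1 or 3, 4 without Plasmax-TE replicate 1, 6 without Plasmax-TE+Fe replicate 2 and 7 without both of these. NRF2 targets had 3 of 19 higher (15.8%, against 6.66% of all genes tested) and 2 lower (10.5%, against 9.91%). Without Plasmax-TE replicate 1 or Plasmax-TE+Fe replicate 2 the number higher was 5, without both it was 7, with 4 lower, and without EMEM replicate 3 the number lower was 1.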
